A study of Mus musculus with 6 samples.

Results

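The 9 genes described here are those by which osteoclasts, the cells that dissolve bone, are recognised: Tnfrsf11a, Oscar, Nfatc1, Mitf, Dcstamp, Ocstamp, Itgb3, Acp5 and Ctsk. They were taken by symbol from the deposited count table, where each has 1 line, and are 9 of 49016 gene symbols. They were chosen by their counts in these 6 libraries, by cell type and by VE against WT, so their levels and differences are a description and carry no test. The libraries come from mouse myeloid cells of 3 kinds, each from mice labelled as BRAF V600E mutant (VE) and from wild-type mice (WT): VE monocytes and WT monocytes, VE intravascular macrophages (IVM) and WT intravascular macrophages, and VE microglia and WT microglia. The V600E substitution locks BRAF, a kinase upstream of MEK and ERK, in its active state. Each combination is 1 library, and the differences between genotypes are therefore without replicates. The labels give neither the promoter or cells in which the mutation was switched on, nor the age of the mice, the number of mice pooled, or how the cells were isolated.

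Osteoclasts arise when cells of the monocyte and macrophage lineage receive 2 signals, CSF1 through its receptor Csf1r and RANK ligand (Tnfsf11) through its receptor RANK (Tnfrsf11a). Receptors that signal through ITAM adaptors add a co-stimulus. The transcription factors NFATc1, MITF, PU.1 and AP-1 then switch on the genes for cell fusion, attachment to bone, acid secretion and collagen breakdown. Macrophages outside bone express some of these genes, and multinucleated giant cells that resemble osteoclasts occur in lesions of histiocytosis, which often carry this mutation.

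The promoters of the 2 enzyme genes Ctsk and Acp5 are shown because textbook work on osteoclasts places MITF, PU.1 and NFATc1 on them, and because both genes had their largest ratio of VE to WT in microglia. RefSeq windows (build GRCm38.p6, from 250 bases before to 50 bases after a transcription start) were held for 5 of the 9 members: Tnfrsf11a, Oscar, Mitf, Ctsk and Acp5. Capitals mark PU.1 (GAGGAA), NFAT (GGAAA) and M-box (TCATGTG, bound by MITF) letters on either strand. The first window is chr3:95498960-95499259, plus strand. The second, at start number 3 of 3 RefSeq starts of Acp5, is chr9:22130549-22130848, minus strand.
Ctsk: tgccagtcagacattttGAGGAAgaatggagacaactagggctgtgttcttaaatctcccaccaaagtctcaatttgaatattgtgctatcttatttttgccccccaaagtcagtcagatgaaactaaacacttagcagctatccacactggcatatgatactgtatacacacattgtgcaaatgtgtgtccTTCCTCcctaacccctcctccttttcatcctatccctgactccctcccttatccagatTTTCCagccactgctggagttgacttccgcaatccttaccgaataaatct
Acp5: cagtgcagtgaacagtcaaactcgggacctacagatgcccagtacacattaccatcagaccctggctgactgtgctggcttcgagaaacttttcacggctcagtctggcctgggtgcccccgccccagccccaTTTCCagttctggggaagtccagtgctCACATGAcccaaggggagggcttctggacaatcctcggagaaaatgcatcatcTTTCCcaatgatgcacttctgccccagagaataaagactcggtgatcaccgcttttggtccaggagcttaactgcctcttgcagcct

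The Ctsk window held 2 PU.1 matches and 1 NFAT match. The Acp5 window held 1 M-box and 2 NFAT matches, none overlapping, and no PU.1 match. The windows at Acp5 starts 1 and 2, not printed, held 1 NFAT match each and neither an M-box nor a PU.1 match. Across all 32851 mouse windows of the same length, 3.77% held TCATGTG, 28.3% held GAGGAA and 61.3% held GGAAA. The M-box was in 1 of the 9 windows of these members, and the letters of AP-1 (TGANTCA, in 7.81% of all windows) and of the second M-box form (TCACGTG, 3.77%) were in none of them. The E-box CANNTG, which an M-box contains, was in 72.3% of all windows and in 7 of the 9. A match in letters is no evidence of binding.

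Levels are given as CPM, read counts per gene brought to a common effective library size with TMM factors. Total counts ran from 25787476 to 65519506 per library. Intervals are exact 95% counting intervals. They cover counting error only, because reads amplified without molecular identifiers are not independent molecules. A library with 0 counts is set at a floor of 3 counts for a fold, which is then a bound. Levels of different genes are compared only in deposited TPM, which divide by gene length.

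The markers of microglia and of classical monocytes were highest in the libraries so labelled, while 2 libraries stood apart. The 11 microglia markers summed to 65073 and 30704 CPM in VE and WT microglia, and the 9 classical monocyte markers to 13806 and 7346 CPM in VE and WT monocytes. The 14 markers of T and NK cells had a sum of 4.49 CPM in VE and 5209 CPM in WT intravascular macrophages. In VE none of the 14 reached 10 CPM and Cd8a and Ncr1 were at 0, while in WT all 14 did. In addition, WT intravascular macrophages had at most 3 counts of 72 genes that reached 10 CPM in each other library, and Mitf was among the 72. No other library lacked a gene in this way. WT intravascular macrophages also had the fewest genes with a count, 15121, against 19063 to 23214 in the other libraries. VE monocytes held 56583 CPM of neutrophil and 10484 CPM of erythroid markers, against 1976 and 217 CPM in WT monocytes. In bulk samples, fewer cells of a type and less RNA per cell cannot be told apart.

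**Figure D1:**
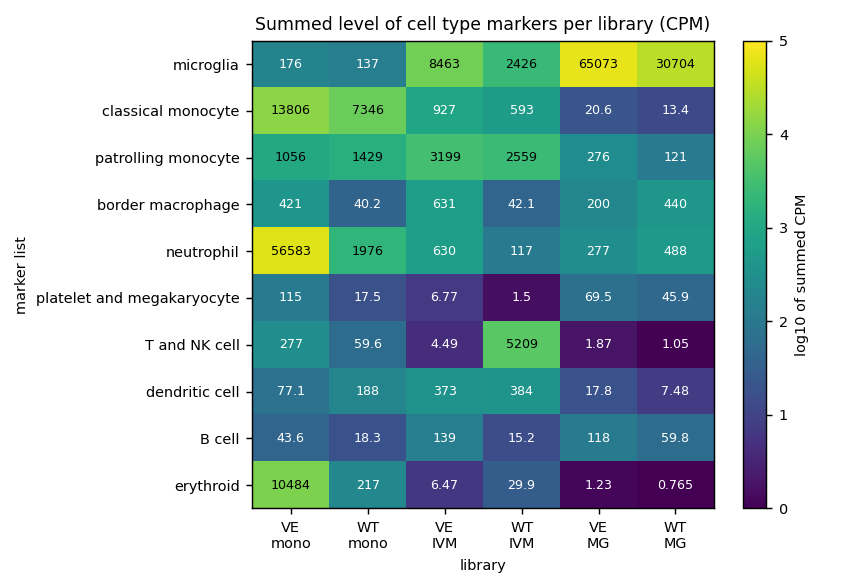
Summed CPM of 10 lists of cell type markers (rows) in each library (columns, VE left of WT), coloured on a log10 scale with the sum printed in each cell. T and NK cell markers stand at 5209 CPM in WT intravascular macrophages and at 277 CPM or less elsewhere, and neutrophil markers at 56583 CPM in VE monocytes.

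Tnfrsf11a, which encodes RANK, the receptor for RANK ligand (chromosome 1, 105780718 to 105847981, plus strand), was read in every library but differed between genotypes in opposite directions. VE monocytes had 103 CPM, against 19.7 CPM in WT monocytes. VE intravascular macrophages had 39.6 CPM, against 0.300 CPM in the WT ones, which rests on 11 counts in the library with the fewest genes read. VE microglia had 37.3 CPM, against 84.6 CPM in WT microglia. The receptor gene was thus 5.26-fold higher in VE monocytes (4.77 to 5.80) and 132-fold higher in VE intravascular macrophages (73.6 to 265), and 2.27-fold lower in VE microglia (2.12 to 2.42). Within wild type it was 4.31-fold higher in microglia than in monocytes (3.91 to 4.75), while within the mutant it was 2.77-fold lower in microglia than in monocytes (2.59 to 2.95). VE intravascular macrophages and VE microglia did not differ beyond counting error in CPM, while on TPM they stood at 21.6 and 11.3 TPM. On TPM the highest library was WT microglia, at 30.7 TPM, and VE monocytes, at 14.5 TPM, were also below VE intravascular macrophages, at 21.6 TPM.

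Oscar, an FcR gamma-associated receptor that binds collagen and gives the ITAM co-stimulus (chromosome 7, 3609813 to 3616157, minus strand), was almost unread. It had 2 counts in WT microglia and 0 in the other 5 libraries. The floor of 3 counts corresponds to 0.0351 CPM in VE intravascular macrophages, the deepest library, and to 0.127 CPM in WT monocytes, the shallowest. No fold is given, and expression below these levels was not detectable at this depth.

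Nfatc1, the transcription factor on which osteoclast formation depends, was read in every library at 52.9 CPM or more and was lower in VE than in WT cells of each kind, except on TPM in intravascular macrophages. It stood at 75.8 CPM in VE and 117 CPM in WT monocytes, at 143 CPM in VE and 167 CPM in WT intravascular macrophages, and at 52.9 CPM in VE and 166 CPM in WT microglia. The VE libraries were 1.54-fold (1.46 to 1.62), 1.17-fold (1.14 to 1.21) and 3.13-fold lower (2.97 to 3.30), in the order monocytes, intravascular macrophages, microglia. On TPM intravascular macrophages had 62.5 TPM in VE and 31.6 TPM in WT. WT intravascular macrophages and WT microglia did not differ beyond counting error in CPM, while on TPM they stood at 31.6 and 48.4 TPM. T cells also use this factor, and the T and NK cell markers of WT intravascular macrophages given above stand beside its level there. Their part in it was not tested. An antisense transcript overlaps Nfatc1 in GENCODE M21, and whether reads were counted by strand is not stated, so reads of the 2 genes cannot be told apart.

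Mitf, a basic helix-loop-helix factor that acts with PU.1 on osteoclast enzyme genes (chromosome 6, 97807052 to 98021349, plus strand), had between 12.3 and 27.5 CPM in 5 libraries and almost no counts in WT intravascular macrophages. VE and WT monocytes had 27.5 and 12.3 CPM, and VE and WT microglia 15.6 and 18.5 CPM. VE intravascular macrophages had 14.4 CPM, against 0.0819 CPM, or 3 counts, in the WT ones. Mitf was 2.23-fold higher in VE monocytes (1.95 to 2.55) and 1.18-fold lower in VE microglia (1.06 to 1.32). In intravascular macrophages the ratio was 175, with an interval of 59.9 to 851 on the 3 WT counts. Mitf is among the 72 genes at 3 counts or fewer in that WT library alone. The pseudogene Gm15531, with at most 90 counts in a library, lies antisense within Mitf.

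**Figure D2:**
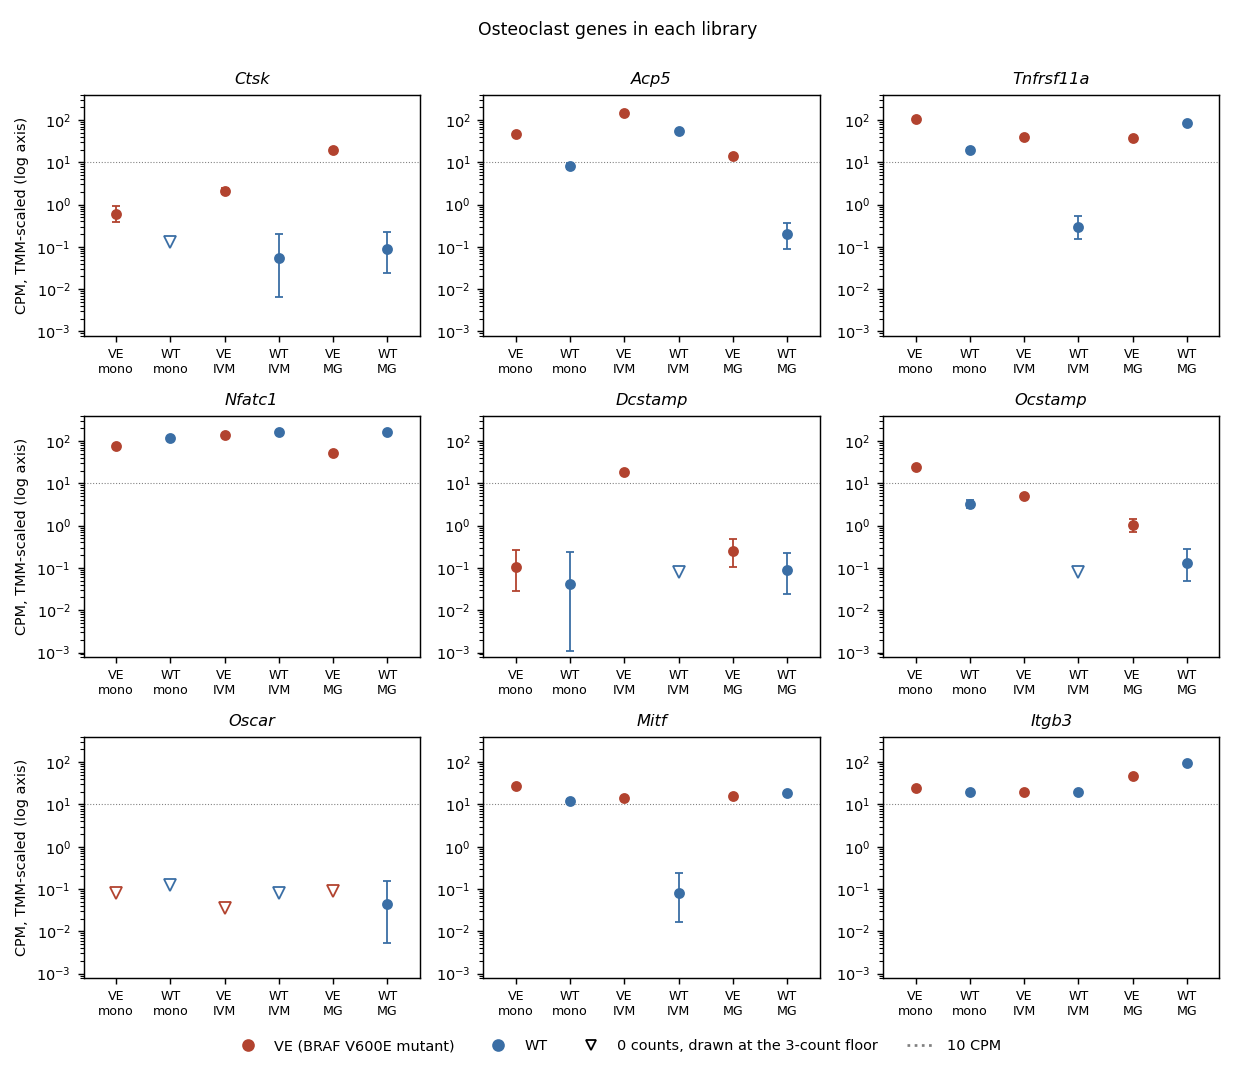
CPM of the 9 genes on a log axis in each library, VE (red) left of WT (blue) within monocytes (mono), intravascular macrophages (IVM) and microglia (MG). Bars are 95% counting intervals (most are shorter than the point), open triangles mark 0 counts at the 3-count floor, and the dotted line marks 10 CPM. Ctsk passes 10 CPM only in VE microglia (19.9 CPM) and Dcstamp only in VE intravascular macrophages (18.1 CPM), while Oscar has counts in WT microglia alone (0.0437 CPM).

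The 2 genes of cell fusion, Dcstamp and Ocstamp, were highest in different libraries, though both were read in VE intravascular macrophages and at 0 counts in the WT ones. Both encode membrane proteins without which osteoclasts stay mononuclear. Dcstamp (chromosome 15, 39745930 to 39760938, plus strand) had 18.1 CPM, or 1548 counts, in VE intravascular macrophages and 0 counts in WT ones, at least 221-fold higher. This bound, like that of Ocstamp below, allows at most for counting error with reads taken as independent. WT intravascular macrophages also had the fewest genes with a count (15121). In the other cells Dcstamp was at the level of single reads, with 4 counts in VE and 1 in WT monocytes, and 8 in VE and 4 in WT microglia. Neither of these pairs differed beyond counting error. Within the mutant, Dcstamp was 171-fold higher in intravascular macrophages than in monocytes (66.8 to 630.0) and 73.8-fold higher than in microglia (37.4 to 171). Border macrophage markers summed to 631 CPM in VE and 42.1 CPM in WT intravascular macrophages, and microglia markers to 8463 and 2426 CPM. Their part in the level of Dcstamp was not tested.

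Ocstamp (chromosome 2, 165393760 to 165400405, minus strand) was highest in VE monocytes, at 23.9 CPM, against 3.30 CPM in WT monocytes. It had 5.08 CPM in VE intravascular macrophages and 0 counts in the WT ones, and 1.01 CPM in VE and 0.131 CPM in WT microglia. The gene was higher in VE than in WT cells of each kind, by 7.23-fold in monocytes (5.73 to 9.23), at least 62.1-fold in intravascular macrophages and 7.73-fold in microglia (3.20 to 22.6). It was lower in microglia than in monocytes in both genotypes, 23.6-fold in VE (16.7 to 34.4) and 25.2-fold in WT (11.1 to 70.7). In VE monocytes, where it was highest, 10 of 11 neutrophil markers and 6 of 7 erythroid markers reached 10 CPM, against 8 of 11 and 4 of 7 in WT monocytes. Their part in the level of Ocstamp was not tested.

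Itgb3, the integrin beta 3 subunit, pairs with alpha V (Itgav) to attach osteoclasts to bone and with alpha IIb (Itga2b) on platelets (chromosome 11, 104608000 to 104670476, plus strand). It was highest in microglia. VE and WT microglia had 46.7 and 94.1 CPM. The other libraries were close together in CPM, at 24.8 CPM in VE and 19.7 CPM in WT monocytes, and at 19.7 CPM in VE and 19.8 CPM in WT intravascular macrophages. On TPM they lay further apart, at 3.51 and 5.09 TPM in VE and WT monocytes and 10.9 and 4.71 TPM in VE and WT intravascular macrophages. It was higher in microglia than in monocytes in both genotypes, 1.89-fold in VE (1.74 to 2.05) and 4.79-fold in WT (4.35 to 5.28). VE microglia were 2.01-fold lower than WT microglia (1.90 to 2.14). In monocytes VE was 1.26-fold higher (1.13 to 1.41), a direction that turned with library size scaling and with TPM. Intravascular macrophages did not differ between genotypes beyond counting error, except on TPM. Platelet markers summed to 115 CPM in VE and 17.5 CPM in WT monocytes. In microglia they summed to 69.5 CPM in VE and 45.9 CPM in WT, of which Gp9 alone was 61.0 and 40.5 CPM. Itga2b was at 0.123 CPM in VE and 0.109 CPM in WT microglia. The part of platelets in the level of Itgb3 was not tested.

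Acp5 encodes tartrate-resistant acid phosphatase, the enzyme by which osteoclasts are stained (chromosome 9, 22126727 to 22135711, minus strand). It was higher in VE than in WT cells of each kind. Intravascular macrophages led, with 146 CPM in VE and 54.3 CPM in WT. Monocytes had 46.5 CPM in VE and 8.22 CPM in WT, and microglia 14.0 CPM in VE and 0.197 CPM in WT. These are differences of 2.69-fold (2.57 to 2.82) in intravascular macrophages, 5.66-fold (4.88 to 6.60) in monocytes and 71.3-fold (37.2 to 157) in microglia, the last on 457 VE and 9 WT counts. Acp5 was the one member whose 6 levels had counting intervals that did not overlap, in the same order in CPM and TPM. Intravascular macrophages were above monocytes in both genotypes, 3.15-fold in VE (2.99 to 3.31) and 6.61-fold in WT (5.70 to 7.70). They were above microglia by 10.4-fold in VE (9.49 to 11.5) and 276-fold in WT (145 to 605). Border macrophage markers summed to 421 CPM in VE and 40.2 CPM in WT monocytes. In microglia they summed to 200 CPM in VE and 440 CPM in WT, of which Stab1 alone was 172 and 433 CPM. The other 7 markers summed to 28.0 CPM in VE and 7.37 CPM in WT microglia, of which Ms4a7 alone was 18.6 and 1.29 CPM. Of the 8 markers, 6 were higher in VE microglia and 2 lower. Among the 6, Mrc1 was close, at 6.27 CPM in VE and 5.38 CPM in WT. Cd163, Folr2 and Cd209f were at 0.430 CPM or less in both libraries. The part of these markers in Acp5 was not tested. An antisense transcript, 6530413G14Rik, overlaps this gene.

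Ctsk encodes cathepsin K, the protease that cuts bone collagen (chromosome 3, 95499256 to 95509362, plus strand). It was higher in VE than in WT cells of each kind, and reached 10 CPM only in VE microglia. VE microglia had 19.9 CPM, or 647 counts, against 0.0875 CPM, or 4 counts, in WT microglia. VE and WT intravascular macrophages had 177 and 2 counts, and VE and WT monocytes 23 and 0 counts. The ratio was 227 in microglia (88.3 to 836), 38.0 in intravascular macrophages (10.4 to 316, on the 2 WT counts) and at least 4.79 in monocytes. The 3 WT libraries, with 4 counts or fewer each, had counting intervals that overlapped each other, and all lay below those of the VE libraries. Within the mutant, Ctsk was 9.58-fold lower in intravascular macrophages than in microglia (8.10 to 11.4), the reverse of Acp5. The markers of border macrophages, another macrophage of the brain, given for Acp5 in microglia stand beside this too, and their part in Ctsk was not tested. Microglia markers summed to 8463 CPM in VE and 2426 CPM in WT intravascular macrophages. Their part in the level of Ctsk there was not tested.

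**Figure D3:**
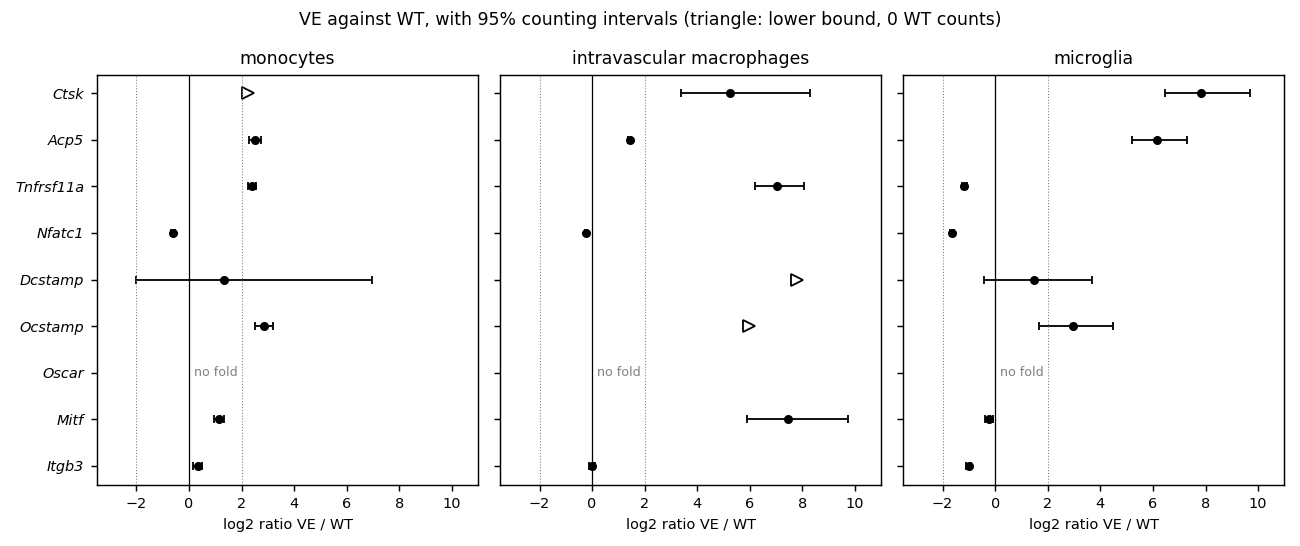
Log2 ratio of VE to WT for the 9 genes in each cell type, with 95% counting intervals. Triangles are lower bounds against 0 WT counts and dotted lines mark 4-fold. Acp5, Ctsk and Ocstamp lie right of 0 in all 3 cell types, Nfatc1 lies left of it (right on TPM in intravascular macrophages, not drawn), and Tnfrsf11a lies right in monocytes and intravascular macrophages and left in microglia.

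Within a library, the members stood in different proportions. In VE intravascular macrophages the order in TPM was Acp5 at 235, Nfatc1 at 62.5, Dcstamp at 29.7, Tnfrsf11a at 21.6, Itgb3 at 10.9, Mitf at 7.56, Ocstamp at 4.53, Ctsk at 4.47 and Oscar at 0. In VE microglia Ctsk led at 23.9 TPM, followed by Itgb3 at 14.4, Nfatc1 at 12.9 and Acp5 at 12.6 TPM. WT microglia had the genes of the receptor, the factor and the integrin without the enzymes: Nfatc1 at 48.4, Itgb3 at 34.7 and Tnfrsf11a at 30.7 TPM, with Acp5 at 0.211 and Ctsk at 0.126 TPM. Each VE library had 6 of the 9 members at 10 CPM or more, against 4 in WT monocytes, 3 in WT intravascular macrophages and 4 in WT microglia. Genes with a count numbered 20486 in VE and 19063 in WT monocytes, 23214 and 15121 in intravascular macrophages, and 20321 and 21880 in microglia. The members were chosen with these levels known, and the share of all genes at 10 CPM in each library was not counted. Nothing is read from these counts of members.

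A size rule was used to set the members beside all genes: at least 10 CPM in the higher library and a log2 ratio of at least 2, which is 4-fold. In monocytes 6 of the 9 members reached 10 CPM, of which Acp5, Tnfrsf11a and Ocstamp passed as higher in VE. Of all 8377 genes at that level, 6.37% passed as higher and 0.609% as lower (6.98% in all). With library size scaling Acp5 (log2 ratio 1.90) and Tnfrsf11a (1.80) fell short of the rule, and on TPM Acp5 (1.49), Tnfrsf11a (1.36) and Ocstamp (1.44) did. In intravascular macrophages, Tnfrsf11a, Dcstamp and Mitf passed as higher, of 6 members at that level, against 16.5% of 9565 genes higher and 13.1% lower (29.6% in all). In microglia, Ctsk and Acp5 passed as higher, of 6 members, against 2.83% of 8798 genes higher and 4.64% lower (7.47% in all). On TPM Acp5 passed as higher in intravascular macrophages (log2 ratio 2.61) and Mitf fell below the level there (7.56 TPM). No member passed as lower, except Nfatc1 in microglia with library size scaling (-2.27). Since the members were chosen with these ratios known, and a gene reaches 10 CPM through the library where it is high, nothing is read from these counts.

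The 104 other genes of the pathway, in 6 lists, showed which neighbours of the members differed between genotypes. These lists were chosen with earlier results of these data known, and a gene reaches 10 CPM through the library where it is high. In each cell type, the counts of pathway genes past the size rule are therefore a description and carry no test. In VE monocytes 17 of the 88 at 10 CPM were at least 4-fold higher and none lower, against the 6.37% and 0.609% of all genes. Their median log2 ratio was -0.15, against 0.05 over all genes, so the count rests on a minority. None of the 20 measured genes of RANK signalling was among them. Of the acid and matrix list, 4 of 17 were higher: Spp1 (osteopontin) at 2639.5 CPM in VE and 0.974 CPM in WT, Mmp9 (a gelatinase, also of neutrophils) at 349 and 0.466 CPM, Car2 (the carbonic anhydrase that supplies acid, also of red cells) at 10.6 and 0.254 CPM, and Gpnmb at 16.8 and 1.14 CPM. The neutrophil and erythroid markers given above were higher in the same library, and their part in Mmp9 and Car2 was not tested. Fusion genes higher in VE monocytes were Adam8 (15.8-fold, 14.1 to 17.8) and the tetraspanins Cd81 (11.3-fold, 9.42 to 13.6) and Cd9 (10.1-fold, 8.97 to 11.5). The same neutrophil markers stand beside these, as do platelet markers at 115 CPM in VE and 17.5 CPM in WT monocytes. Their part in the levels of these fusion genes was not tested.

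Some factors on both sides of osteoclast formation were at least 4-fold higher in VE monocytes. Among the activators were Myc at 7.18-fold (5.49 to 9.53), Tfec, a relative of Mitf, at 5.27-fold (3.95 to 7.17), the AP-1 family gene Jdp2 at 4.97-fold (4.05 to 6.15) and Batf at 4.05-fold (3.66 to 4.49). Among the repressors were Id3 at 27.9-fold (21.8 to 36.2), Id1 at 10.6-fold (8.33 to 13.6) and Id2 at 4.10-fold (3.94 to 4.26). Other factors were lower in VE monocytes, by less than 4-fold. Among these were the repressors Bcl6 (3.41-fold, 3.16 to 3.68) and Irf8 (2.09-fold, 2.03 to 2.14) and the activator Fos (2.74-fold, 2.70 to 2.78). Csf1, the growth factor itself, was 11.9-fold higher (7.59 to 19.7) and the ITAM-coupled receptor Trem2 5.29-fold (4.91 to 5.71). With library size scaling 9 pathway genes were past the rule as higher and 2 as lower, and on TPM 7 and 2. Csf1, Batf and Id2 fell short with DESeq2 size factors too. Tfec, Jdp2, Batf, Id2, Csf1, Trem2 and Car2 fell short of 4-fold or of 10 CPM with library size scaling and on TPM, and Myc and Gpnmb on TPM.

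In VE intravascular macrophages 17 of 89 pathway genes were at least 4-fold higher and 3 lower, against the 16.5% and 13.1% of all genes, so the share higher was near the background. Their median log2 ratio was 0.59, against -0.13 for all genes. The CSF1 receptor Csf1r had 5215 CPM in VE and 1012 CPM in WT, while the ligand gene Csf1 had 10.4 CPM in VE and 70.9 CPM in WT, 6.79-fold lower. Btk, a kinase downstream of ITAM receptors, was 17.8-fold higher (15.4 to 20.7) and its adaptor Blnk 4.19-fold (3.89 to 4.52). In RANK signalling Traf2 was 8.96-fold (7.63 to 10.6) and Gab2 6.91-fold higher (6.13 to 7.81), and the kinase Camk4 was at 0 counts in VE and 64.1 CPM in WT, at least 1824-fold lower. Camk4 is also a T cell gene, and the T and NK cell markers of the WT library stand beside it.

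The acid and matrix genes gave the largest group in these macrophages, with 6 of 17 higher and 1 lower. Spp1 was 12.8-fold (11.5 to 14.2), the anion exchanger Slc4a2 7.74-fold (6.47 to 9.32) and the membrane metalloproteinase Mmp14 5.38-fold higher (4.93 to 5.89), and Car2 was 35.7-fold lower (26.9 to 48.4). Prdm1, which represses inhibitors of osteoclast formation, was 8.68-fold higher (6.88 to 11.1), and Rbpj, an inhibitor, 5.99-fold (5.47 to 6.57). The fusion and attachment genes Cd81, Sirpa and Gsn were 8.43-fold (8.24 to 8.63), 5.38-fold (5.26 to 5.50) and 4.88-fold higher (4.64 to 5.14). On TPM, which moved the median of all genes in this pair to 1.02, 34 pathway genes were past the rule as higher and 1 as lower, and Csf1 and Camk4 fell short of it.

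In VE microglia 5 of 78 pathway genes were at least 4-fold higher and 6 lower, against the 2.83% and 4.64% of all genes. Their median log2 ratio was -0.18, against 0.12 for all genes. Fos, the AP-1 subunit that acts upstream of Nfatc1 in osteoclasts, had 12476 CPM in VE and 566 CPM in WT, 22.1-fold higher (21.8 to 22.3). Nfatc1 itself was 3.13-fold lower in VE microglia. Fos was 2.74-fold lower in VE monocytes and 1.19-fold higher in VE intravascular macrophages. In VE microglia Batf was 8.83-fold (7.62 to 10.3), Id2 11.4-fold (11.1 to 11.7), Nr4a1 4.02-fold (3.62 to 4.49) and Spp1 10.4-fold higher (8.25 to 13.3). The partner of Itgb3, Itgav, was lower as Itgb3 was, with 44.5 CPM in VE and 184 CPM in WT, 4.12-fold lower (3.90 to 4.36). Src, the kinase of the osteoclast's attachment ring, was 4.96-fold lower, Hif1a 4.77-fold, Grb2 4.39-fold, Slc4a2 4.13-fold and Traf3, an inhibitor of RANK signalling, 4.05-fold. With library size scaling, which moved the median of all genes to -0.50, 4 were higher and 16 lower. Nr4a1 fell short of 4-fold with library size scaling and on TPM, and Traf3, Slc4a2 and Src on TPM (Traf3 and Slc4a2 in their ratio, Src in its level).

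**Figure D4:**
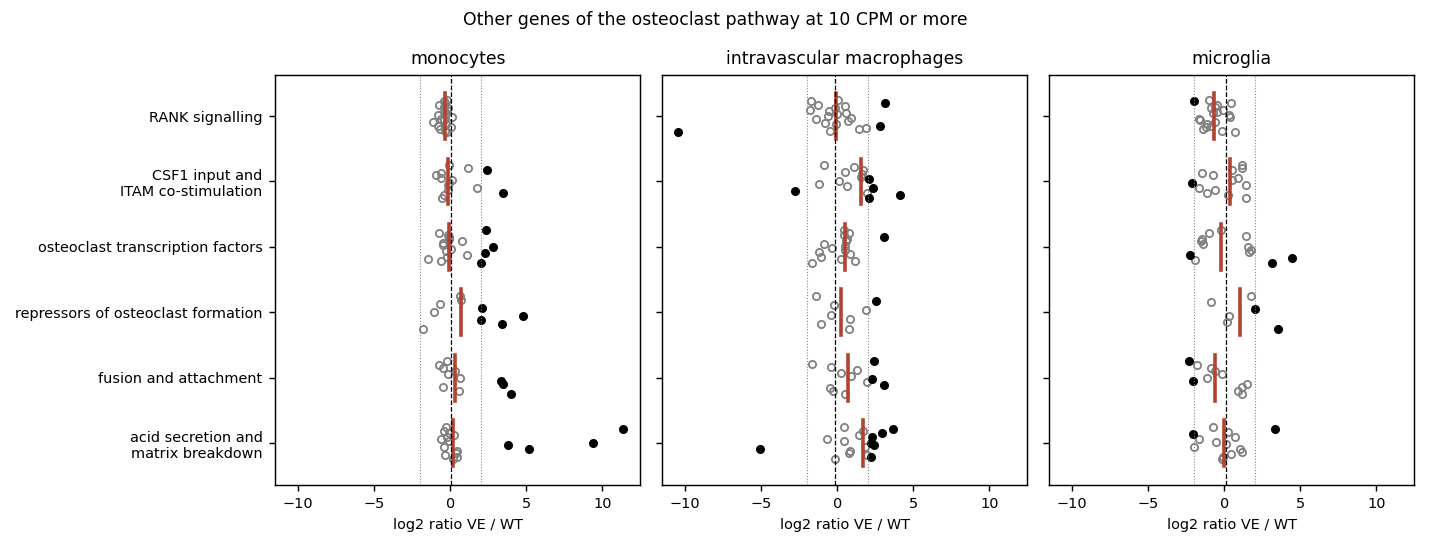
Log2 ratio of VE to WT for pathway genes at 10 CPM or more, by list and cell type. Filled points are past the size rule, red bars are list medians, the dashed line is the median of all genes and dotted lines mark 4-fold. Ratios use a prior count of 2, so a gene at 0 counts is drawn at a fitted value. Acid and matrix genes have 4 filled points on the VE side in monocytes, 6 in intravascular macrophages and 1 in microglia.

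Cell types could be tested gene by gene for the pathway genes, since each has a library of either genotype. The lists were chosen with earlier results of these data known. Counts of called pathway genes beside the share of all genes are therefore a description here too, and the p-values belong to single genes. The test was edgeR's quasi-likelihood test over all 6 libraries with genotype as a covariate, at a Benjamini-Hochberg adjusted p under 0.05. It has 2 residual degrees of freedom. No cell type and genotype has replicates, so VE and WT libraries stand in as replicates of a cell type. The spread behind the p-values is therefore how the difference between VE and WT varies between cell types, mixed with noise. These parts cannot be told apart, and the noise may be technical. Of 97 pathway genes tested, 6 were higher and 9 lower in microglia than in monocytes, against 1.76% and 3.23% of all 17023 genes (4.99% in all). Blnk, a B cell and macrophage signalling adaptor, had a log2 fold change of 7.66 (edgeR adjusted p = 0.000449), and Trem2 one of 4.38 (edgeR adjusted p = 0.0216). Cd81 was higher (8.04) and Cd44, a hyaluronan receptor used in fusion, lower (-8.12), as were Adam8 (-5.08) and the exchange factor Vav3 (-8.21). The AP-1 genes went both ways, with Jun higher (5.13) and Fosl2 lower (-4.49). Nr4a1 (-3.70) and Rab3d (-3.78) were lower and Mmp14 (5.12) higher. Blnk, Cd44 and Vav3 were called under each of 10 other settings, with adjusted p of at most 0.0274, and the other 8 named genes were lost under 2 to 6 of them. The count of 15 fell to 7 without the VE monocyte library and to 7 without the WT monocyte library, and was 36 without either intravascular macrophage library.

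Intravascular macrophages had 7 pathway genes higher and 0 lower than microglia (1.25% and 0.0411% of all genes, 1.29% together). Those with 10 CPM in both libraries were Cd44 (log2 fold change 6.85, edgeR adjusted p = 0.00469, at most 0.0216 under the other settings), Vav3 (7.36), Pparg (7.0), Id3 (6.30), Adam8 (5.26), Nr4a1 (4.82) and Gsn (3.69). The last 6 were each lost under at least 1 setting, Gsn under 6 of 10. At an unadjusted p under 0.05 edgeR gave 13 higher and 3 lower, and DESeq2 at its adjusted threshold 10 and 3. The count of 7 was 3 without the WT microglia library and 29 without the VE intravascular macrophage library. Against monocytes, Blnk alone was called in intravascular macrophages, as higher (4.81, edgeR adjusted p = 0.0148, up to 0.312 under the other settings), where 0.27% of all genes were higher and 0.241% lower (0.511% together). The unadjusted counts were 10 higher and 4 lower, and DESeq2 gave 6 and 3. The call was lost without the VE monocyte library or the WT monocyte library. Without the VE or the WT intravascular macrophage library 32 or 16 were called, and without the VE or the WT microglia library 3.

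The genes whose pattern over the 6 libraries was nearest to each member were found by the root mean square difference of centred log2(CPM + 1) values, among 9976 genes. The nearest to Ctsk were Ttr, a thyroid hormone carrier of the choroid plexus (0.46), Ppp1r15a (0.59) and Ier2 (0.60). Ttr had 20.0 CPM in VE and 0.0219 CPM in WT microglia. Ier2, an immediate early gene, had 2049 and 158 CPM. Dcstamp was nearest to Spry4, a feedback inhibitor of the ERK pathway (0.17), which had 14.7 CPM in VE and 0 counts in WT intravascular macrophages, followed by Adgrl3 (0.37) and Dbn1 (0.40). Ocstamp was nearest to Pclaf, a gene of dividing cells (0.25), Cfb (0.37) and the neutrophil receptor Cxcr2 (0.37).

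Acp5 was nearest to Pltp, a lipid transfer protein (0.49), and to the MHC class II genes H2-Aa (0.58) and H2-Eb1 (0.77). Pltp followed the same order of cell types, with 399 CPM in VE and 105 CPM in WT intravascular macrophages and 14.9 CPM in VE and 1.53 CPM in WT microglia. Tnfrsf11a was nearest to Rgl1 (0.47), Klf7 (0.58) and Yipf6 (0.59), all at 0.246 CPM or less in WT intravascular macrophages. Mitf was nearest to Dmxl2 (0.14), Agtrap (0.20) and Desi2 (0.20). Nfatc1 was nearest to Tmem94 (0.08), Nol9 (0.10) and Trim3 (0.11), and Itgb3 to Map3k9 (0.26), Stxbp5 (0.26) and Marcks (0.29). Members were rarely near each other: Mitf was the sixth nearest gene to Tnfrsf11a (0.65), and from Mitf, Tnfrsf11a ranked 248. From Acp5, Dcstamp ranked 474 and Ctsk 6038, so the enzyme and fusion genes did not follow 1 pattern.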

How the data were processed

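Total RNA of mouse monocytes, intravascular macrophages and microglia, 1 library per cell type and genotype, was read as full-length cDNA (SMART-Seq HT, Nextera XT, per the labels' protocols). The authors deposited raw read counts per gene and TPM, counts divided by gene length and scaled to a common sum. The submitters' processing notes name bcl2fastq 2.20, Trimmomatic 0.37, STAR 2.5.2b, Subread 1.5.2 and build mm10; the annotation and the use of strand were not stated. Of 49315 lines, 176 without a name (0.00507% to 0.0166% of counts) and 26 with a date as name (0.0618% to 0.237%) were left out, and 94 repeated symbols were summed. The predicted gene Gm23935 took 46.6% of the TPM in WT and 5.02% in VE intravascular macrophages. It took 38.1% in WT and 1.13% in VE microglia, and 8.10% in WT and 4.56% in VE monocytes. For this reason counts were used and TPM served as an alternative.

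Counts were scaled with TMM factors (edgeR 4.0.16, R 4.3.3). Log2 ratios of VE to WT used a prior count of 2. Fold intervals are exact conditional binomial and level intervals exact Poisson at 95%. For cell types the test was edgeR's quasi-likelihood fit (filterByExpr, genotype as covariate, Benjamini-Hochberg over all genes). A run on simulated counts without a genotype effect required only that planted changes came out with the right sign. It does not show how the test performs on these libraries. DESeq2 1.42.0 was an alternative. Coordinates are from GENCODE M21 (GRCm38, the mm10 build) and promoters from RefSeq.

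The 9 members, the lists and the settings were chosen with earlier results of these data known. Named pathway genes are, per list, the 4 largest log2 ratios past the size rule in a genotype comparison, and the 3 largest called fold changes where the higher cell type had 10 CPM in VE and WT alike. To them come the 3 nearest profiles of each member, without predicted genes and pseudogenes. Other names were chosen after their values were seen. A gene that this rule names is not reported here.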

Additional observations from a re-analysis of the deposited data

Results flagged for a closer look

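Tnfrsf11a, Mitf and Itgb3 differed between genotypes in opposite directions in different cell types. For Itgb3 in intravascular macrophages the difference was within counting error. With 1 library per group, the difference between cell types was not tested. The log2 ratio of VE to WT for Tnfrsf11a was 2.39 in monocytes, 6.84 in intravascular macrophages and -1.18 in microglia. For Mitf it was 1.15 in monocytes, 6.82 in intravascular macrophages and -0.24 in microglia. For Itgb3 it was 0.33 in monocytes, -0.0073 in intravascular macrophages and -1.01 in microglia. The signs of Tnfrsf11a and Mitf were kept under library size scaling, DESeq2 size factors, a prior count of 0.5 and TPM. Itgb3 turned in monocytes, to -0.26 with library size scaling and -0.43 on TPM.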

How the results depend on the processing

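Of 24 ratios of members, 21 kept their sign under library size scaling, DESeq2 size factors, a prior count of 0.5 and TPM. The exceptions were Itgb3 in monocytes (0.33, or -0.43 on TPM), Itgb3 in intravascular macrophages (-0.01, or 1.06 on TPM) and Nfatc1 in intravascular macrophages (-0.23, or 0.96 on TPM). TPM moved the median of all genes to 1.02 in intravascular macrophages and to -0.71 in monocytes, and library size scaling to -0.54 in monocytes and -0.50 in microglia. The genes past the size rule in monocytes (585) were 335 on TPM and 3713 with no minimum level, and the pathway genes (17) 11 with library size scaling and 9 on TPM. For intravascular macrophages (2835 and 20) they were 9051 genes with no minimum and 35 pathway genes on TPM. For microglia (657 and 11) they were 1524 and 20 with library size scaling and 2875 and 21 with no minimum. In all genes the split of higher to lower moved from 534 and 51 to 242 and 184 (library size) or 166 and 169 (TPM) in monocytes, from 1579 and 1256 to 2514 and 493 (TPM) in intravascular macrophages, and from 249 and 408 to 87 and 1437 (library size) or 153 and 384 (TPM) in microglia. In the test of cell types, intravascular macrophages against monocytes gave 87 calls and 1 pathway call, which became 429 and 4 with no filter, 25 and 0 without the genotype covariate, 988 and 9 with DESeq2, and 58 to 5089 and 0 to 32 with a library left out. Microglia against monocytes (849 and 15) became 1446 genes with no filter, 538 and 7 without the covariate, 2616 and 28 with DESeq2, and 382 to 5142 and 7 to 36 with a library left out. Intravascular macrophages against microglia (220 and 7) became 518 genes with no filter, 115 and 2 without the covariate, 889 and 13 with DESeq2, and 158 to 5745 and 3 to 29 with a library left out. Fits with a library left out leave 1 residual degree of freedom, and a lone library is assumed to vary like the others. The cause of these shifts was not tested. No library could be left out of a genotype comparison. No paired analysis was possible because the labels give no replicate numbers and each group is 1 library.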

Other observations

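Several pathway genes below 10 CPM, chosen after their values were seen, lay outside the size rule. Atp6v0d2, a proton pump subunit needed for osteoclast fusion, had 208 counts in VE and 0 in WT microglia (at least 97.4-fold higher), 120 and 0 counts in VE and WT intravascular macrophages (at least 17.2-fold) and 10 and 1 counts in VE and WT monocytes (ratio 6.24, 0.888 to 271). Gpnmb, a glycoprotein of osteoclasts and lipid-laden macrophages, had 386 counts in VE and 0 in WT intravascular macrophages (at least 55.2-fold higher), and 42 and 2 counts in VE and WT microglia (ratio 29.5, 7.67 to 252). Tnfsf11, the gene of RANK ligand, had 0 counts in VE and 159 in WT intravascular macrophages (at least 124-fold lower) and 0 counts in the other 4 libraries. Activated T cells are known to make this ligand, and 14 of 14 T and NK cell markers reached 10 CPM in that WT library; their part in it was not tested. Tnfrsf11b, the decoy receptor, had 1 count in VE intravascular macrophages and 0 elsewhere, and the calcitonin receptor gene Calcr had 0 counts in every library, under the limit of 3 counts.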
